A study of Mus musculus with 14 samples.

Results

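Gluconeogenesis is the making of new glucose from lactate, amino acids and glycerol, and the liver is the organ best known for it between meals. Of 10 genes named as its enzymes and their regulators, all 10 were measured, among 22180 genes with 1 symbol on the arrays. They were the enzymes Got1, Pcx, Pck1, Fbp1 and G6pc, the transporters Slc37a4 and Aqp9, and the regulators Foxo1, Ppargc1a and Crtc2. The choice was by name, with earlier results of these data known. RNA came from the livers of male C57BL/6J mice, 7 labelled as sleep-deprived (mice 1, 2, 3, 5, 6, 10 and 13) and 7 as controls (mice 4, 7, 8, 9, 11, 12 and 14). The study is about glucose tolerance and liver fat after 1 sleep deprivation of 6 h. Mice were kept awake in 3 ways (changes of cage, a platform in water, handling), and the labels do not say which one these mice had. Age, feeding state and hour of collection are also not given. Each numbered sample was taken as 1 mouse, so that p-values measure the spread between these samples.

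In the liver, pyruvate carboxylase and phosphoenolpyruvate carboxykinase turn pyruvate into phosphoenolpyruvate, fructose bisphosphatase undoes a step of glycolysis, and glucose-6-phosphatase frees glucose inside the endoplasmic reticulum after a transporter has brought its substrate in. Glucagon, acting through cAMP and the CREB coactivator CRTC2, and glucocorticoids are known to raise transcription of these genes, while insulin lowers it by driving FOXO1 out of the nucleus.

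The values are log2 levels per probe set, so that a difference of 1 is a doubling. Array medians lay between 3.443 and 3.491 and correlations between arrays between 0.984 and 0.99. Precision is limited by having 7 arrays per group. Hepatocyte markers were among the brightest genes in both groups. Their mean log2 level lay between 11.94 and 12.04 in controls and between 11.97 and 12.04 in sleep-deprived mice, and of 6 measured 1 was higher (Apoa1) and 0 lower. Of 6 sinusoidal endothelial markers 3 were higher (Lyve1, Oit3 and Pecam1) and 0 lower, and their mean level lay between 7.11 and 7.49 in controls and between 7.35 and 7.88 after sleep deprivation. At an unadjusted p under 0.05 there were 4, with Kdr pointing lower at -0.18 (limma, adjusted p = 0.114). For scale, an unadjusted p of 0.0417 (Cebpb, limma) ranked 4001 of 22180 genes. Counts by unadjusted p are therefore not to be set against shares by adjusted p. Over all genes 3.88% were called higher and 4.62% lower (limma, adjusted p under 0.05). Pecam1 lost its call in 6 of 14 fits that left out 1 mouse and Apoa1 in 4 of 14 and in 3 of 9 other settings. Kupffer cell markers (7 measured) and stellate cell markers (6 measured) had 0 genes called by limma, and 0 and 1 at an unadjusted p under 0.05. The part of other cell types in the results below was not tested. In whole liver, fewer cells of a type and less RNA per cell cannot be told apart.

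Of the 10 genes, 5 rose (Got1, G6pc, Foxo1, Slc37a4 and Pck1), 1 fell (Aqp9) and 4 did not pass the test (Ppargc1a, Fbp1, Pcx and Crtc2). Among all genes 3.88% were called higher and 4.62% lower, 8.50% in all (limma, adjusted p under 0.05). All 10 lay above the median level of all genes, the lowest at 6.52 against 3.99. A fit of the brighter genes alone called 2259 of 11090 genes, and 6 of the 10. The median log2 difference of the 10 genes was 0.17, against -0.0048 over all genes. The groups did not overlap in 3 of the 10 (Slc37a4, Foxo1 and Aqp9), and in 3.13% of all genes.

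**Figure D1:**
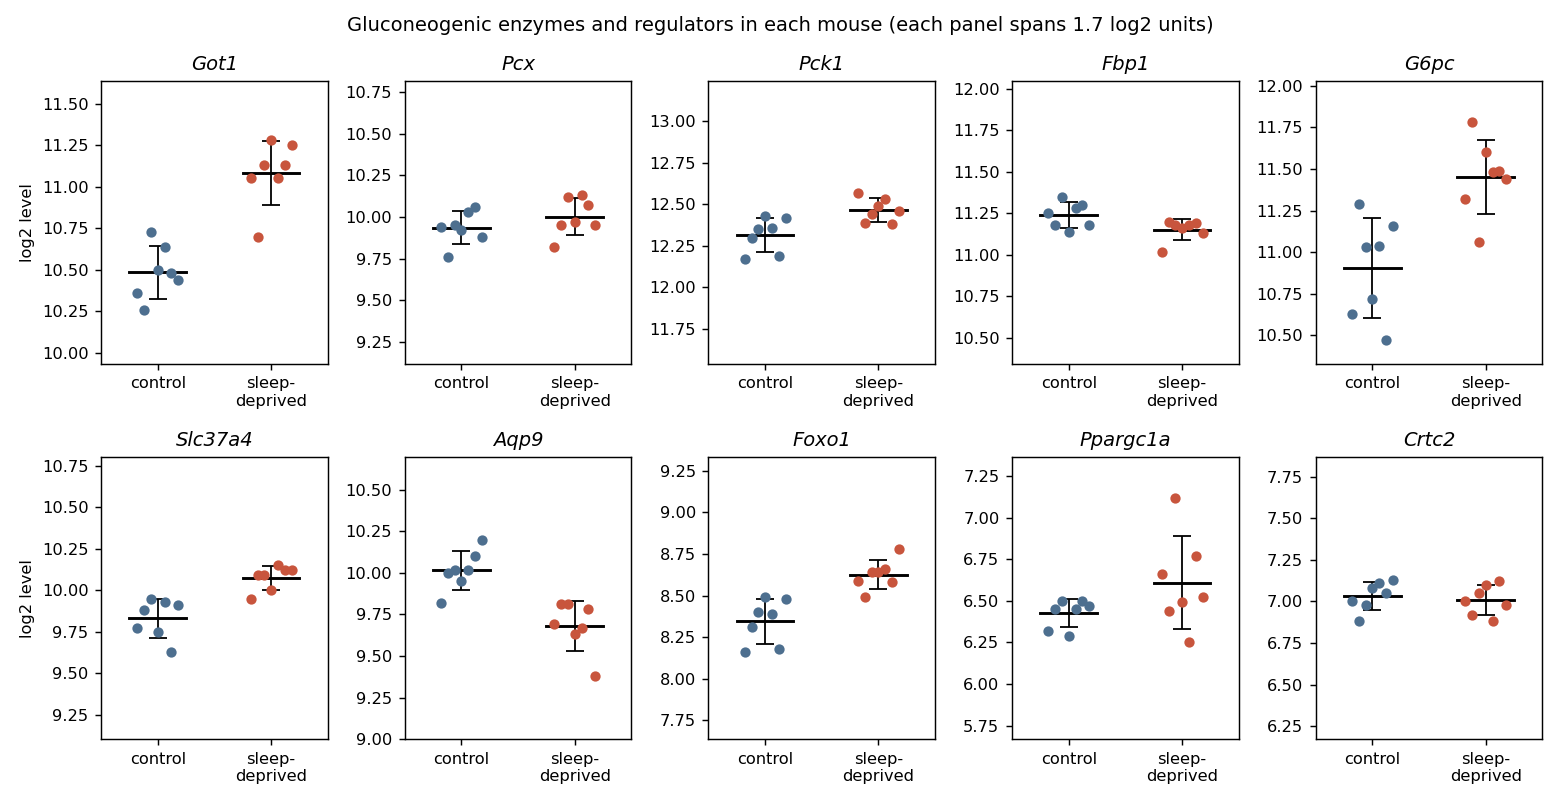
Log2 level (vertical axis, each panel spanning the same range) of the 10 genes in each mouse, ordered by mouse number, for 7 control and 7 sleep-deprived mice. Bars are the mean and SD of 7 mice. Got1 and G6pc show the widest steps between groups, Aqp9 lies lower after sleep deprivation, and Crtc2 lies at the same height in both groups.

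Got1, the cytosolic aspartate aminotransferase that returns oxaloacetate to the cytosol, had the largest change of the enzymes. Its log2 level ran from 10.26 to 10.73 in controls (median 10.48) and from 10.70 to 11.28 in sleep-deprived mice (median 11.13). Only sleep-deprived mouse 2, at 10.70, fell inside the control range, and the other 6 lay above every control. The difference was 0.60 ± 0.079 (moderated SE, n = 7 per group), or 1.52-fold with a 95% interval of 1.35 to 1.7 (limma, adjusted p = 4.98e-05). Without mouse 2 the difference was 0.66. Its mitochondrial partner Got2, which runs the same reaction on the other side of the membrane, was at -0.045 ± 0.029 (limma, adjusted p = 0.465).

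Pcx, the mitochondrial pyruvate carboxylase that starts the route, overlapped almost wholly between groups. Controls ran from 9.76 to 10.06 (median 9.94) and sleep-deprived mice from 9.82 to 10.13 (median 9.97). The difference of 0.070 ± 0.054 had a 95% interval of -0.04 to 0.18 (limma, adjusted p = 0.557), so that a change by more than 1.14-fold upward lies outside the interval.

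Pck1, the cytosolic phosphoenolpyruvate carboxykinase, was the brightest of the 10 genes and rose least of those that passed. Control levels were 12.17 to 12.43 (median 12.35) and sleep-deprived levels 12.38 to 12.57 (median 12.46). Of 7 sleep-deprived mice 5 were above every control, and mice 2 and 10 were at 12.39 and 12.38. The difference was 0.15 ± 0.044, or 1.11-fold (limma, adjusted p = 0.0383). This call was lost in 9 of 14 fits that left out 1 mouse (sleep-deprived mouse 1, 3, 5, 6 or 13 or control mouse 4, 7, 8 or 12), with an adjusted p of up to 0.0906. It was also lost without the intensity trend (adjusted p = 0.142), after a second quantile normalization (0.0777) and with the sample number as a covariate (0.0620), while the difference stayed between 0.13 and 0.17 without any 1 mouse. Pck2, the mitochondrial isoenzyme, was dim, at a mean of 5.22 in controls and 5.16 after sleep deprivation (limma, adjusted p = 0.843).

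Fbp1, the fructose-1,6-bisphosphatase of liver, pointed slightly down. Its levels were 11.14 to 11.35 in controls (median 11.25) and 11.02 to 11.20 in sleep-deprived mice (median 11.18). All 7 sleep-deprived mice lay below the control mean of 11.24, but only 2 lay below every control. The difference of -0.092 ± 0.040 did not pass (limma, adjusted p = 0.199).

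G6pc, the catalytic subunit of glucose-6-phosphatase, carries the last step. Its log2 level ran from 10.47 to 11.29 in controls (median 11.03) and from 11.06 to 11.78 after sleep deprivation (median 11.48). It varied widely among controls, whose SD of 0.30 was larger than that of 95.9% of all genes. Of the sleep-deprived mice 6 lay above every control, and mouse 3, at 11.06, lay among them. The difference was 0.55 ± 0.12, or 1.46-fold with a 95% interval of 1.24 to 1.73 (limma, adjusted p = 0.00416). G6pc3, the form of the enzyme found in most tissues, was at -0.19 ± 0.10 (limma, adjusted p = 0.350), and G6pc2, the form of pancreatic islets, was dim at a mean of 2.57 in both groups.

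Slc37a4, which carries glucose-6-phosphate into the endoplasmic reticulum to reach that enzyme, also rose. Controls lay between 9.63 and 9.95 (median 9.88) and sleep-deprived mice between 9.95 and 10.15 (median 10.09). The groups did not overlap, by a margin of 0.0047 between the lowest sleep-deprived and the highest control mouse. The difference was 0.24 ± 0.052, or 1.18-fold (limma, adjusted p = 0.00406).

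Aqp9, the channel through which hepatocytes take up glycerol, was the 1 gene of the 10 that fell. Its level was 9.82 to 10.20 in controls (median 10.02) and 9.38 to 9.81 in sleep-deprived mice (median 9.69). All 7 sleep-deprived mice lay below every control, by a margin of 0.0025 at the closest. The log2 difference was -0.33 ± 0.065, a ratio of 0.795 with a 95% interval of 0.723 to 0.874 (limma, adjusted p = 0.00242).

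The bases before the start of Pck1 and G6pc are shown because these promoters are known for a cAMP response element and for insulin response sequences bound by FOXO1. In the RefSeq promoter table (build GRCm38.p6), 9 of the 10 genes had an entry, with 13 promoters in all; Crtc2 had none. Exact matches were sought on both strands in the 250 bases before each start. The letters were TGACGTCA (the cAMP response element), CGTCA (its half-site, which lies within it), GTAAACA (a forkhead sequence), CAAAACA (an insulin response sequence) and the glucocorticoid response element. Capitals mark the matches. The Pck1 stretch is chr2:173152823-173153072 on the plus strand, with a half-site 90 to 86 bases before the start. The G6pc stretch is chr11:101367466-101367715 on the plus strand, with an insulin response sequence on the opposite strand 174 to 168 bases before the start.

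Pck1: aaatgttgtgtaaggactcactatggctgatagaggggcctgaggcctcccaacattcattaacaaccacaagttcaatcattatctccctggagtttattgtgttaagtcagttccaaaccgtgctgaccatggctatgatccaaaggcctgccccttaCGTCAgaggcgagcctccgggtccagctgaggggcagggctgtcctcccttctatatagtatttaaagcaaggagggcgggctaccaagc
G6pc: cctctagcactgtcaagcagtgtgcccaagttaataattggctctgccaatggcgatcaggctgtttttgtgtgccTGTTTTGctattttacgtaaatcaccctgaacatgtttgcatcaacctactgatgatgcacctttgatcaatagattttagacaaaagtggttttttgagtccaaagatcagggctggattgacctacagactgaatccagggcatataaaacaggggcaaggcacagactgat

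Half-sites also stood before Slc37a4, which rose, and before Ppargc1a, which did not pass the test. The 60 bases around each are shown for comparison, from chr9:44396856-44396915 (plus strand, the first of 3 Slc37a4 starts) and chr5:51567746-51567805 (minus strand).

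Slc37a4: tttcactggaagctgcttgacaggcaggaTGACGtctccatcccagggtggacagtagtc
Ppargc1a: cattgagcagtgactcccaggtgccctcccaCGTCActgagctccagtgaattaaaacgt

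The half-site was found in 4 of the 13 promoters (3 genes, since Slc37a4 has it before 2 of its starts) and in 17.8% of all 32851 promoters in the table. Those 2 Slc37a4 windows overlap and share a site, 61 to 57 bases before the first start and 214 to 210 before the later one. The later start has a further half-site 82 to 78 bases before it. The insulin response sequence was found in 1 of the 13 and in 5.56% of all. The full cAMP response element (1.55% of all), the forkhead sequence (3.17%) and the glucocorticoid response element (0.00913%) were found in 0 of the 13. These are matches of letters in a short window, and Got1 and Foxo1, which rose, had none of them there.

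Among the regulators, Foxo1 rose, and Ppargc1a and Crtc2 did not pass the test. Foxo1 encodes a forkhead transcription factor of G6pc and Pck1 that insulin holds in check. Its level was 8.16 to 8.49 in controls (median 8.39) and 8.49 to 8.78 in sleep-deprived mice (median 8.64). The groups did not overlap, by a margin of 0.0055. The difference was 0.28 ± 0.060, or 1.22-fold (limma, adjusted p = 0.00426). A dimmer probe set of Foxo1 pointed the same way at 0.23 ± 0.081 and did not pass when every probe set was tested (limma, adjusted p = 0.0902).

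Ppargc1a, which encodes the coactivator PGC-1 alpha that fasting induces in liver, did not pass the test. Controls lay close together, from 6.29 to 6.50 (median 6.45), while sleep-deprived mice ran from 6.25 in mouse 6 to 7.12 in mouse 3 (median 6.52). The SD was 0.085 in controls and 0.28 after sleep deprivation, or 0.18 without mouse 3; the difference in spread was not tested. The sleep-deprived group thus held both the lowest and the highest mouse of all 14. The difference was 0.18 ± 0.098 (limma, adjusted p = 0.334), and 0.097 without mouse 3. Mouse 3 was also the sleep-deprived mouse with the lowest G6pc.

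Crtc2, the coactivator through which cAMP acts on CREB, was at 6.88 to 7.13 in controls (median 7.05) and 6.88 to 7.12 in sleep-deprived mice (median 7.00). The difference was -0.025 ± 0.056 with a 95% interval of -0.14 to 0.09 (limma, adjusted p = 0.881). Its sign turned with the sample number as a covariate (0.0055). RNA levels do not show where the proteins of Foxo1 and Crtc2 were, which is how hormones control them.

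Pairs of genes that work together or are relatives of each other were compared within each array. The group difference was tested with an exact permutation test over the mice (two-sided, 3432 assignments, smallest possible p = 0.000583, p-values adjusted over 6 pairs by Benjamini-Hochberg). Got1 rose relative to Got2, which did not rise itself, by 0.64 ± 0.10 on the log2 scale (exact permutation, p = 0.00117, adjusted 0.00699, above every control in 6 of 7 sleep-deprived mice). G6pc rose relative to G6pc3, which did not rise either, by 0.73 ± 0.19 (exact permutation, p = 0.00350, adjusted 0.0105, above every control in 5 of 7). These differences kept their call in each of 14 repeats that left out 1 mouse.

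The other pairs were closer to the threshold. G6pc rose more than Pck1 by 0.40 ± 0.14 (exact permutation, adjusted p = 0.0361, above the control mean in 7 of 7 sleep-deprived mice). This call was lost without sleep-deprived mouse 2, 5 or 13 or control mouse 4 or 12, with an adjusted p of up to 0.0664. G6pc rose more than its transporter Slc37a4 by 0.30 ± 0.12 (exact permutation, adjusted p = 0.0413, above the control mean in 6 of 7). That call was lost in 8 of 14 repeats (sleep-deprived mouse 1, 2, 5 or 13 or control mouse 4, 8, 9 or 12), with an adjusted p of up to 0.0813. Foxo1 rose more than Foxo3, another insulin-restrained forkhead factor, by 0.20 ± 0.085 (exact permutation, adjusted p = 0.0413, above the control mean in 6 of 7), a call lost in 9 of 14 repeats (sleep-deprived mouse 1, 2, 3, 5 or 13 or control mouse 4, 7, 8 or 12; adjusted p up to 0.0867). It was lost too with the mean of the probe sets of a gene (adjusted p = 0.0587). Pck1 against Pck2, at 0.20 ± 0.11, did not pass (exact permutation, adjusted p = 0.0973), and passed without control mouse 9 (0.0399) or sleep-deprived mouse 10 (0.0495). In all, 5 of 6 pairs passed, and the number lay between 2 and 6 when 1 mouse was left out.

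**Figure D2:**
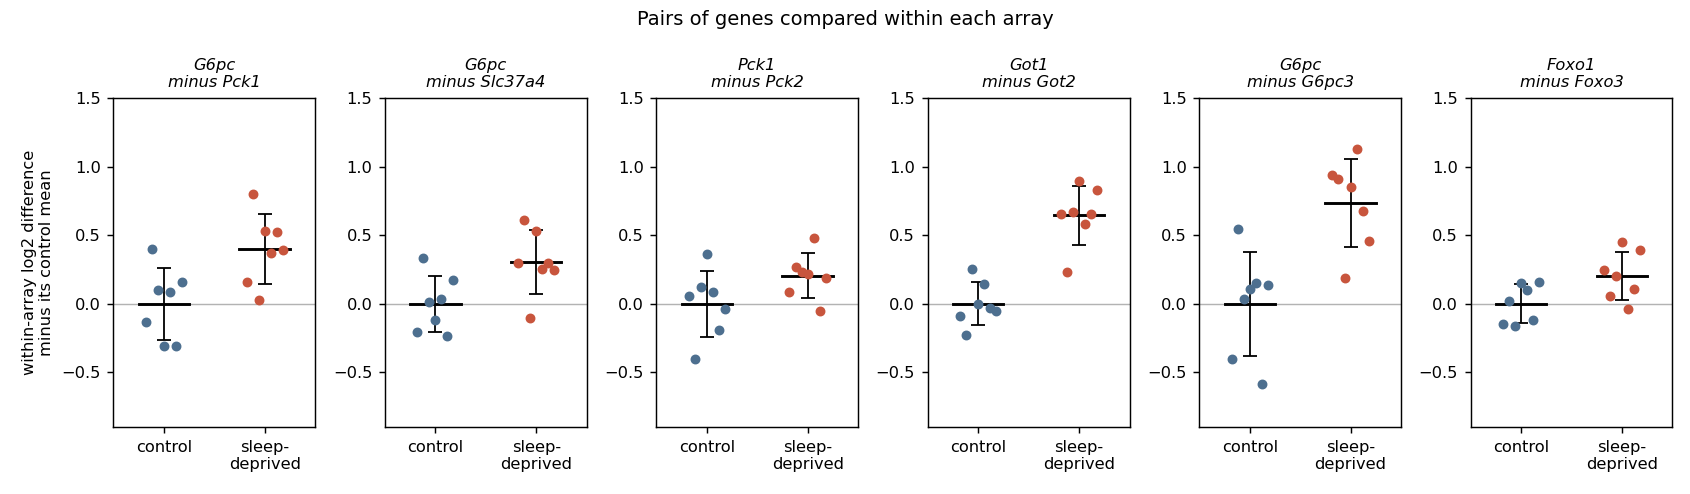
Log2 difference between 2 genes within each array (vertical axis, shifted so that the control mean of each pair is 0) in 7 control and 7 sleep-deprived mice, ordered by mouse number, with the mean and SD. Got1 minus Got2 and G6pc minus G6pc3 are the widest steps, at 0.64 and 0.73.

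The 10 genes did not vary as 1 block from mouse to mouse. Over the 45 pairs of genes, the correlation of deviations from the group means (n = 14 mice, sharing array and normalization within a mouse) had a median of 0.14, and 15 pairs were below 0. With a permutation test within groups (100000 draws), 3 pairs had an unadjusted p under 0.05 and 0 passed after Benjamini-Hochberg adjustment over the 45. The closest pair was Pck1 and Foxo1, with Pearson r = 0.79 (permutation p = 0.0032, adjusted 0.15) and Spearman rho = 0.75 (permutation p = 0.0060, adjusted 0.27), and r = 0.60 without the 2 mice farthest from the median in Pck1. Within the 7 controls r was 0.996, and within the 7 sleep-deprived mice 0.32, a difference that was not tested. In controls, mouse 4 was lowest in both genes (Pck1 at 12.17, Foxo1 at 8.16) and mouse 9 highest in both (12.43 and 8.49). This pair was singled out after its values were seen.

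**Figure D3:**
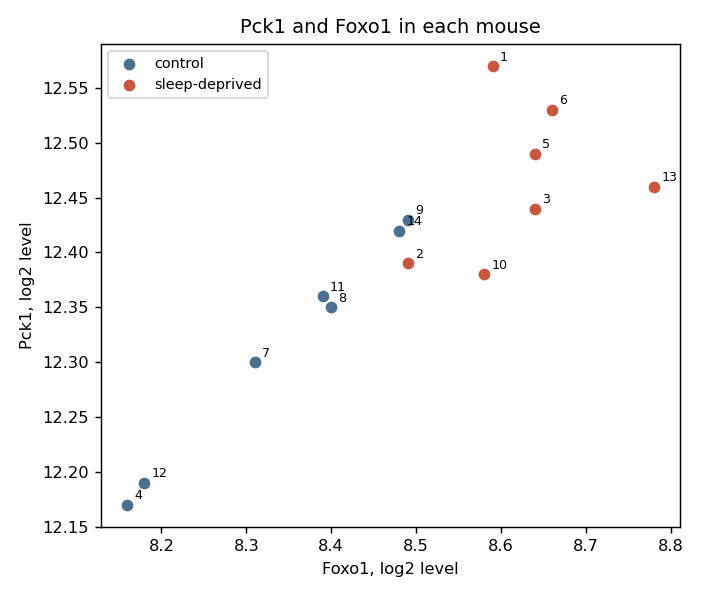
Log2 level of Pck1 (vertical axis) against that of Foxo1 (horizontal axis) in each of 14 mice, labelled by mouse number. Controls lie along a line from mouse 4 to mouse 9 (r = 0.996), and sleep-deprived mice lie at or to the right of the highest of them (r = 0.32).

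The next pairs were Fbp1 with Pcx (r = 0.67, permutation p = 0.011, adjusted 0.24; rho = 0.61, permutation p = 0.023, adjusted 0.52; r = 0.59 without 2 mice) and G6pc with Slc37a4 (r = 0.62, permutation p = 0.032, adjusted 0.48; rho = 0.54, permutation p = 0.072, adjusted 0.63; r = 0.56 without 2 mice). G6pc and Slc37a4 had r = 0.88 in controls and 0.07 in sleep-deprived mice, a difference that was not tested. Among 11090 genes in the brighter part of the arrays, those with deviations most like Got1 included the metallothioneins Mt2 (r = 0.86 over 14 arrays) and Mt1 (0.84), small metal-binding proteins. Mt2 was higher after sleep deprivation (0.83, limma, adjusted p = 0.0360) and Mt1 did not pass (0.50, adjusted p = 0.0630). For G6pc the nearest was Tiprl (r = 0.86), for Pck1 Txndc15 (0.85), for Foxo1 Wnt2 (0.90) and for Aqp9 Slc25a23 (0.88), a mitochondrial carrier that was lower itself (-0.32, limma, adjusted p = 0.000126). These are the highest of many values and are given as a description.

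The rest of the route was taken from a list of 31 further enzymes and carriers, of which 26 were measured. Of these, 3 rose, 3 fell and 20 did not pass, with a median log2 difference of -0.045. The share called, 6 of 26, is to be read against 8.50% of all genes. With only the brighter genes tested, 9 were called, beside 2259 of 11090 genes. G6pc2, Aqp3, Ldhb and Fbp2 lay below the median level of all genes and were not in that fit. Slc16a1, Gpt2 and Mdh2 rose, and Slc25a10, Slc25a11 and Slc2a2 fell.

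Slc16a1, the monocarboxylate transporter that moves lactate and pyruvate across the plasma membrane, rose most. It was at 7.13 to 7.59 in controls (median 7.33) and 7.57 to 8.32 in sleep-deprived mice (median 7.87), and 6 of 7 sleep-deprived mice were above every control. The difference was 0.54 ± 0.10, or 1.45-fold (limma, adjusted p = 0.00175). Gpt2, the mitochondrial alanine aminotransferase, rose by 0.20 ± 0.044 without overlap between the groups (limma, adjusted p = 0.00626). Its cytosolic partner Gpt was at -0.22 ± 0.077, short of the threshold (limma, adjusted p = 0.0969). It passed only when sleep-deprived mouse 6, at 9.20 the highest of all mice, was left out (0.00785). Mdh2, the mitochondrial malate dehydrogenase, rose by 0.15 ± 0.045 (limma, adjusted p = 0.0464). Of 14 fits without 1 mouse, 12 did not keep this call (adjusted p up to 0.103), nor did the fits without the intensity trend (0.123), with arrays centred on the median (0.0559) and with the sample number as a covariate (0.193). Mdh1 in the cytosol was at -0.056 ± 0.051 (limma, adjusted p = 0.638).

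Slc25a10, the mitochondrial carrier that exchanges malate and succinate for phosphate, had the clearest fall of the route. Controls lay between 7.68 and 7.87 (median 7.79) and sleep-deprived mice between 7.19 and 7.46 (median 7.39), with no overlap. The difference was -0.43 ± 0.051, a ratio of 0.741 with a 95% interval of 0.688 to 0.798 (limma, adjusted p = 1.47e-05). Slc25a11, which exchanges malate for oxoglutarate, was at -0.18 ± 0.054 (limma, adjusted p = 0.0375). It missed the threshold in 10 of 14 fits without 1 mouse (adjusted p up to 0.0814), without the intensity trend (0.0736), after a second quantile normalization (0.0512) and with the sample number as a covariate (0.0590). Slc2a2, the glucose transporter GLUT2 through which glucose leaves the hepatocyte, ran from 10.98 to 11.22 in controls and from 10.67 to 11.06 in sleep-deprived mice. The difference was -0.27 ± 0.058 (limma, adjusted p = 0.00455), with 6 of 7 sleep-deprived mice below every control.

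**Figure D4:**
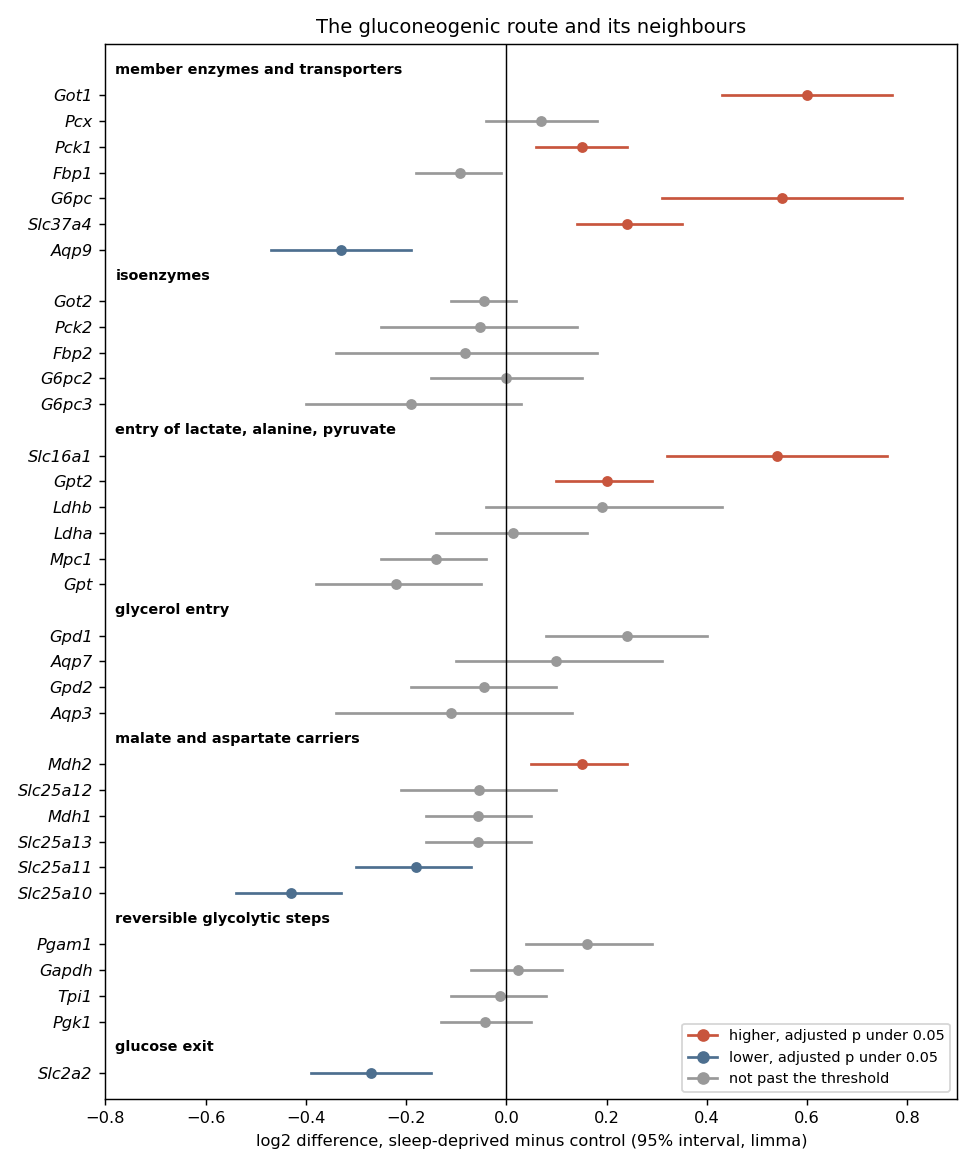
Log2 difference between sleep-deprived and control mice (horizontal axis, point) with its 95% interval from limma (line) for the member enzymes and transporters and the 26 other measured genes of the route, 7 mice per group. Red and blue points passed the test, and grey ones did not. Got1, G6pc and Slc16a1 lie farthest to the right, and Slc25a10, Aqp9 and Slc2a2 farthest to the left.

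None of the 4 measured steps shared with glycolysis in both directions (Tpi1, Gapdh, Pgk1 and Pgam1) passed, their differences lying between -0.04 and 0.16, nor did any of 5 isoenzymes or 4 genes of glycerol entry (limma). At an unadjusted p under 0.05 these counts were 1 (Pgam1), 0 and 1 (Gpd1), where an unadjusted p of 0.0417 (Cebpb, limma) ranked 4001 of 22180 genes. Gpd1, which makes dihydroxyacetone phosphate from glycerol phosphate, was at 0.24 ± 0.077 (limma, adjusted p = 0.0614). Of 3 measured genes of opposing glycolytic steps (the enzymes Pfkl and Pklr, and Gckr, which regulates such a step), 0 passed in limma. At an unadjusted p under 0.05 the count was also 0. Pklr, the pyruvate kinase of liver, was at 0.025 ± 0.086 (limma, adjusted p = 0.926).

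Among 39 other regulators, 2 rose, 6 fell and 31 did not pass, with a median log2 difference of 0.013. The share called, 8 of 39, is again to be read against 8.50%. All 39 lay above the median level of all genes, the lowest at 5.02 against 3.99. The balance of directions depended on the setting, with 6 higher and 4 lower when the sample number was a covariate, and 5 higher and 6 lower when only the brighter genes were tested. Over all genes tested, 1861 of 22180 were called with that covariate. Among the brighter genes 2259 of 11090 were called, a larger share than in the main fit. Sik3, a salt-inducible kinase that keeps CRTC coactivators out of the nucleus, had the larger difference of those that rose. The level of Sik3 was 7.37 to 7.70 in controls (median 7.46) and 7.69 to 8.02 in sleep-deprived mice (median 7.93), where mouse 2 was lowest. The difference was 0.42 ± 0.061, or 1.34-fold (limma, adjusted p = 0.000112). Its relatives Sik1, which cAMP induces, and Sik2 were at -0.18 ± 0.12 and -0.11 ± 0.076, neither past the threshold (limma, adjusted p = 0.493 and 0.523). Klf15, a Krueppel-like factor of amino acid breakdown and gluconeogenesis, rose by 0.27 ± 0.068 (limma, adjusted p = 0.0157). Cry1, a clock repressor, had a larger difference than Sik3, 0.53 ± 0.17, that did not pass (limma, adjusted p = 0.0528).

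Of the glucagon and cAMP branch, both catalytic subunits of protein kinase A that were measured fell, Prkacb with a difference of -0.22 ± 0.053 (limma, adjusted p = 0.00897) and Prkaca with -0.19 ± 0.051 (limma, adjusted p = 0.0204), each with all 7 sleep-deprived mice below every control. Prkaca lost its call with the mean of its probe sets (adjusted p = 0.499), as a dimmer one was at 0.029, and with the sample number as a covariate (0.0796). Gcgr, the glucagon receptor, lay just inside the threshold at -0.20 ± 0.062 (limma, adjusted p = 0.04996). It missed the threshold in 11 of 14 fits without 1 mouse (adjusted p up to 0.111) and in 6 of 9 other settings. Creb1 was at 0.12 ± 0.076 (limma, adjusted p = 0.447).

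Nr3c1, the glucocorticoid receptor, was lower, at 7.82 to 8.01 in controls (median 7.89) and 7.43 to 7.75 in sleep-deprived mice (median 7.72), with no overlap and a difference of -0.22 ± 0.055 (limma, adjusted p = 0.0136). Ppargc1b, the relative of Ppargc1a, was at -0.28 ± 0.075 (limma, adjusted p = 0.0214, and 0.0505 without control mouse 9). The orphan receptor gene Esrrg was at -0.26 ± 0.074 (limma, adjusted p = 0.0302, lost in 6 of 14 fits without 1 mouse, up to 0.0637, and with the sample number as a covariate, at 0.138). Hnf4a, a hepatocyte factor that works with PGC-1 alpha, was at 0.24 ± 0.076, just short of the threshold (limma, adjusted p = 0.0604). It passed when sleep-deprived mouse 2 or 3 was left out, the lower adjusted p being 0.00891. Hnf4a also passed with only the brighter genes tested (0.0372) and with the sample number as a covariate (0.0239). Cebpb was at 0.16 ± 0.072 (limma, adjusted p = 0.231).

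**Figure D5:**
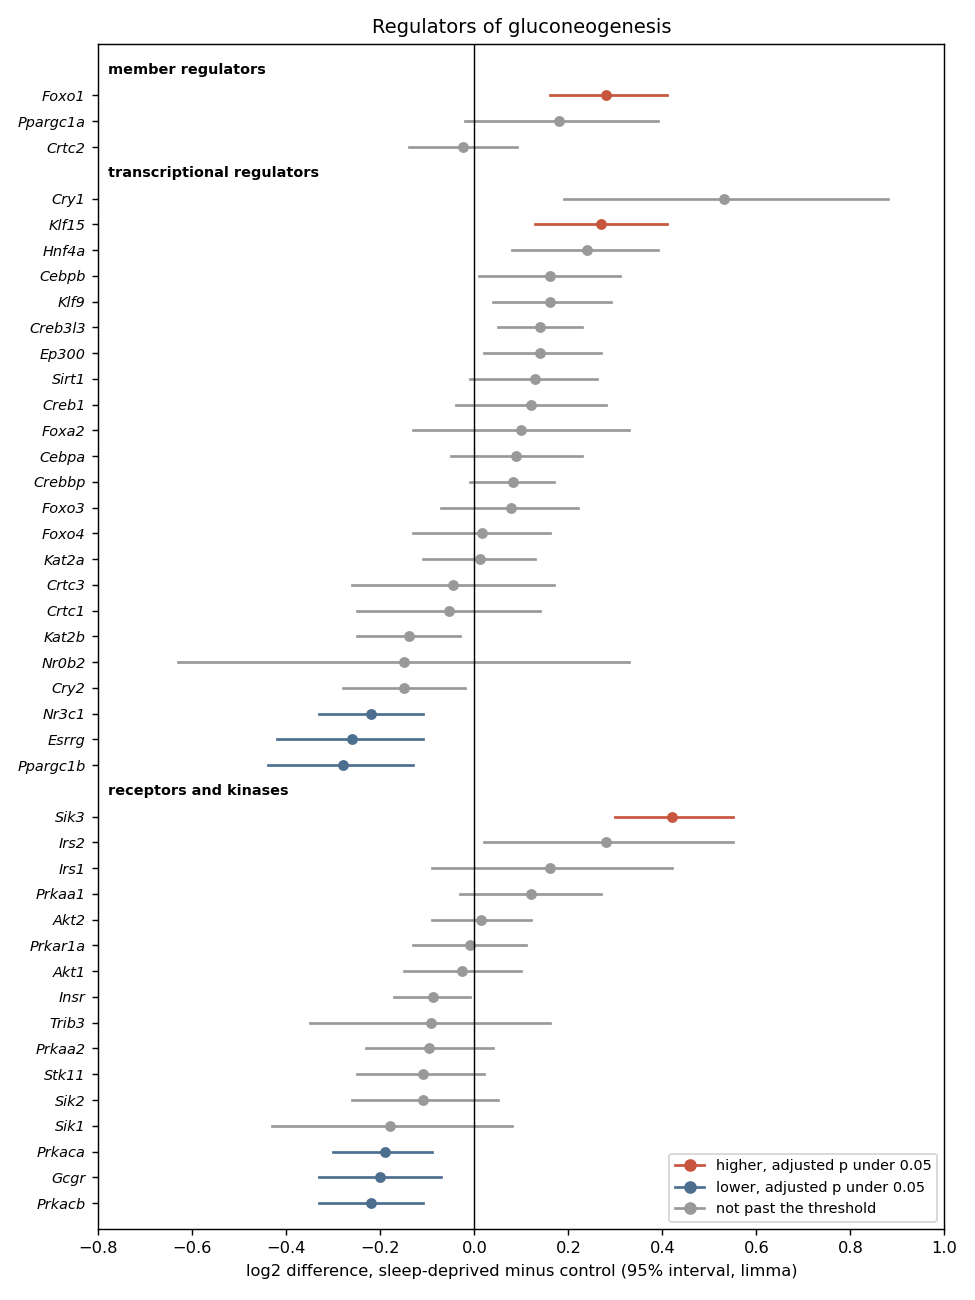
Log2 difference between sleep-deprived and control mice (horizontal axis, point) with its 95% interval from limma (line) for the 3 member regulators and 39 others, 7 mice per group. Red and blue points passed the test, and grey ones did not. The red points are Sik3, Foxo1 and Klf15, and the blue ones Ppargc1b, Esrrg, Nr3c1, Prkacb, Gcgr and Prkaca.

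Of 10 genes known to respond to cAMP, 1 rose, 1 fell and 8 did not pass, with a median of 0.017, where 8.50% of all genes were called. At an unadjusted p under 0.05 there were 5, a count not to be set against that share by adjusted p. For scale, Cebpb, which is not one of these 10, had an unadjusted p of 0.0417 (limma) and ranked 4001 of 22180 genes. Nr4a1, an orphan nuclear receptor gene, had the widest difference, -0.73 ± 0.28, and did not pass (limma, adjusted p = 0.127). Nfil3, a basic leucine zipper repressor, rose by 0.44 ± 0.094 (limma, adjusted p = 0.00412). Pde4b, a phosphodiesterase that breaks down cAMP, fell without overlap, with a difference of -0.48 ± 0.092 (limma, adjusted p = 0.00207), from a dim level of 3.88 to 3.41. Gluconeogenesis is strongest in periportal hepatocytes. Of 8 measured periportal markers 2 rose (Asl and Cps1) and 2 fell (Hal and Aldh1b1), and of 10 pericentral ones 0 rose and 2 fell (Lgr5 and Lect2), against 3.88% of all genes called higher and 4.62% lower. Lgr5 was at -1.05 with the probe set used. A dimmer probe set of Lgr5 was at -0.088 and did not pass when every probe set was tested (limma, adjusted p = 0.687). The call of Cps1 was lost in 10 of 14 fits without 1 mouse, with an adjusted p of up to 0.0949, and also without the intensity trend (0.220) and after a second quantile normalization (0.0525).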

How the data were processed

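The authors deposited log2 values, 1 per probe set and array, made by RMA, which the submitters' processing notes name without a version. Software, annotation and build are not stated in the labels. Liver RNA (100 ng per sample) was labelled with biotin for whole-transcript Affymetrix arrays, per the labels' protocols. The table held 41345 probe sets and no detection calls. Of these, 23521 had 1 symbol in the platform annotation, 1814 several and 16010 were not listed; 23328 were matched by Entrez ID. For the 1082 genes with several probe sets, Foxo1 among the 10, the brightest was used.

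Sleep-deprived minus control was fitted over all 22180 genes with limma 3.58.1 in R 4.3.3 (eBayes with an intensity trend, two-sided) and adjusted by Benjamini-Hochberg, with a threshold of 0.05. The steps were tested on simulated data. Pairs of genes used exact permutation tests. The members and lists were chosen with earlier results of these data known. The text names the 10 genes, 14 measured genes of 16 named whatever their result, and up to 4 called genes per list, 47 in all. Others were named as partners in a pair, as nearest in likeness, or after their values were seen (Cry1, Nr4a1, Kdr, Krt19, Krt7, Epcam, Gpd1, Pgam1, Sik2, G6pc2, Gckr, Pfkl and the remaining genes of the route named with them). Alternatives were 9 other settings and 14 fits without 1 mouse.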

Additional observations from a re-analysis of the deposited data

Results flagged for a closer look

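In groups of 7 mice, 1 mouse stood apart from the other 6 in 8 of the 94 groups checked (47 genes, 2 groups each), by a gap of more than 0.568 of the range; chance alone gives about 1 in 20. Among the 10 genes these were sleep-deprived mouse 2 in Got1 (log2 level 10.70, the others from 11.05), sleep-deprived mouse 1 in Fbp1 (11.02, the others from 11.13) and sleep-deprived mouse 13 in Aqp9 (9.38, the others from 9.63). Sleep-deprived mouse 2 was also lowest in Sik3 (7.69, the others from 7.89). The rest were sleep-deprived mouse 6 in Gpt (9.20, the others up to 8.87), sleep-deprived mouse 3 in Nr3c1 (7.43, the others from 7.68), control mouse 14 in Mdh2 (9.64, the others from 9.78) and sleep-deprived mouse 13 in Sox9, a bile duct marker (7.11, the others up to 6.08). The calls of Got1, Aqp9, Nr3c1 and Sik3 held without each of these mice, while Mdh2 lost its call without control mouse 14. Sox9 was at 0.56 (limma, adjusted p = 0.0359) and lost its call in 7 of 14 fits without 1 mouse, with an adjusted p of up to 0.0812, and under robust eBayes (0.0690). It was the only 1 of 4 measured bile duct markers to be called. Krt19 was at 0.11, Krt7 at 0.061 and Epcam at -0.074 (limma, adjusted p = 0.754, 0.863 and 0.746).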

How the results depend on the processing

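Of the 10 genes, 6 passed in the fit reported and 5 or 6 under each of 9 other settings and each of 14 fits without 1 mouse; where 5 passed, Pck1 was the gene lost. Other enzymes and carriers past the threshold were 6, and 4 to 9 under the alternatives, and other regulators 8, and 6 to 11. The highest counts, 9 and 11, came from the brighter genes alone, of which 2259 of 11090 were called. Got1, G6pc, Slc37a4, Foxo1 and Aqp9 kept direction and call under all of these, with adjusted p of up to 0.000261, 0.0206, 0.0167, 0.0117 and 0.00823 (limma). The sign of Crtc2 turned with the sample number as a covariate (0.0055). Of the 6 pairs, 5 passed, and 2 to 6 without 1 mouse (exact permutation); only 2 or 3 did without sleep-deprived mouse 1, 2, 5 or 13 or control mouse 4, 8 or 12. With fewer mice an exact test has fewer assignments. Of the 33 called genes among the 47 named by rule, 23 kept their call without any 1 mouse. No paired analysis was possible because the groups share no sample number. Differences of dim genes are limited by signal close to background.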
